A study of Mus musculus with 3 samples.

Results

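The 41 genes described here encode hydrolases, activator proteins, transporters and membrane proteins of the lysosome, and were picked by symbol for that role from the 55536 mouse genes quantified. They were measured by polyadenylated RNA sequencing in primary macrophages grown from the bone marrow of C57BL/6J mice and stimulated with 100 ng/mL lipid A for 180 min, in 3 libraries labelled biological replicates 1, 2 and 3, each from 1 µg of RNA. Lipid A, the membrane anchor of bacterial lipopolysaccharide, is the stimulus in the description, but the labels for source and treatment have lipoprotein A instead, entered as a protein. All 3 libraries carry 1 donor identifier, sex and age are recorded as not collected, and the labels name no transgene or mutation. No unstimulated group was analysed here, so every value below is a level in stimulated cells, or a difference between genes or between replicates, and not a response to the stimulus. Nothing in the labels says that the replicates came from separate animals, so the SDs below measure the spread between these libraries, which may be technical. The p-values below do not measure that spread. They come from a test of library differences against counting error and a sign-flip test of ratios, and likewise cover these libraries only.

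The lysosome is the acidic compartment in which a cell breaks down what it engulfs and what it delivers from its own cytoplasm. Soluble hydrolases reach it with a mannose 6-phosphate tag or by other receptors and remove sugars, sulfates, lipids and peptides step by step, with small activator proteins lifting lipids out of membranes. Heavily glycosylated membrane proteins line its inner face, and channels and transporters carry the products out. Macrophages are rich in lysosomes, since they digest microbes and dead cells.

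Many lysosomal genes are known to carry the palindrome CACGTG, an E-box, near their start sites, where factors of the MITF, TFEB and TFE3 family bind. RefSeq promoter windows of 250 bases before to 50 bases after the annotated start (GRCm38.p6) matched 39 of the 41 members. Asah1 and Npc1 were not matched. The palindrome was present in 10 of these 39 members (25.6%), against 8.09% of all 27025 genes with such a window. The same 10 members held it with a T before it or an A after it (TCACGTG or CACGTGA, which contains the first motif), against 4.29% of all genes. Lamp1, a main glycoprotein of the lysosomal membrane, held 4 copies, all within 80 bases of its start at chr8:13159081-13159160 on the plus strand. That stretch is shown whole because it carries more copies than any other member's window, with the palindromes in capitals.
Lamp1: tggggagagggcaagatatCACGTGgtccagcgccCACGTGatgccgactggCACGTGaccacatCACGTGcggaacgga
The other 9 members are shown by 30 bases around the copy nearest to the start site, 5′ to 3′ on the strand of the gene, again with the palindrome in capitals. They lie at chr15:89477423-89477452 (Arsa), chr7:126583340-126583369 (Cln3), chr11:119267811-119267840 (Gaa), chrX:134601182-134601211 (Gla), chr9:114401018-114401047 (Glb1), chr12:102439124-102439153 (Lgmn), chr8:3500462-3500491 (Mcoln1), chr11:101070009-101070038 (Naglu) and chr11:119355522-119355551 (Sgsh). Arsa, Cln3, Gla, Lgmn and Sgsh lie on the minus strand and the others on the plus strand.
Arsa: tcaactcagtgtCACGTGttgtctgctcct
Cln3: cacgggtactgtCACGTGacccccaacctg
Gaa: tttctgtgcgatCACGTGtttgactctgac
Gla: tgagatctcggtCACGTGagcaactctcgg
Glb1: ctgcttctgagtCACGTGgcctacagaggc
Lgmn: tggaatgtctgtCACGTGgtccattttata
Mcoln1: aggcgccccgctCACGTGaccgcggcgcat
Naglu: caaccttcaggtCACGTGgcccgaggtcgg
Sgsh: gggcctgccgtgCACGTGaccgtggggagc
Together the 10 members held 16 palindromes, and all 16 lay before the start site, with first bases from -227 to -15 relative to it. Cln3, Gla, Lamp1 and Mcoln1 had more than 1. The related TCATGTG, known as the M-box and searched on both strands (CACATGA), was present in 6 of 39 members (15.4%), against 4.31% of all genes. These 6 were Acp5, Gla, Grn, Ppt1, Scarb2 and Tpp1. A purine-rich motif of ETS factors, GAGGAAGT on either strand (ACTTCCTC), was present in Gla and Gusb, which is 5.13% of members, against 3.69% of all genes. A match says only that the letters are in the window.

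**Figure D1:**
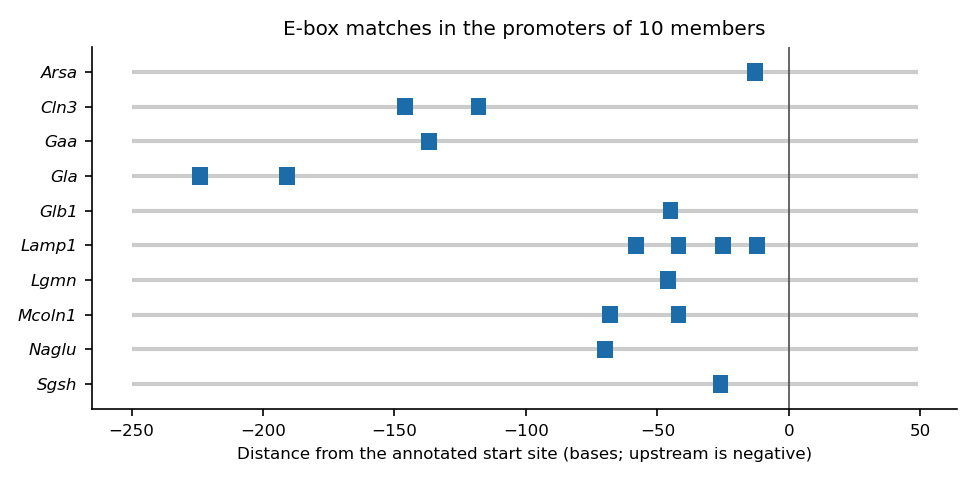
Positions of E-box palindromes in the promoter windows of 10 members. The horizontal axis is the distance in bases from the annotated start site (vertical line), each grey line is the 300-base window of 1 gene, and each block is 1 of 16 palindromes, all of which lie before the start site.

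A list of 15 regulators covered the MITF family that can bind this motif, the mTORC1 kinase complex and its lysosomal anchors, and all 15 were detected, 5 of them with at least 100 TPM. TPM is a level scaled for transcript length and library total, and detected means 1 TPM or more in all 3 replicates. Tfec, a MITF-family gene typical of macrophages, had 189, 170 and 153 TPM in replicates 1, 2 and 3. Rragc, a GTPase of the mTORC1 anchor, followed at 168 ± 13.8 TPM (SD, n = 3), and Lamtor1, a scaffold of that anchor, at 149 ± 3.89 TPM (SD, n = 3). The lowest were Tfeb, at 2.48, 2.03 and 1.59 TPM, and Flcn, a partner of the Rag GTPases, at 9.32, 6.29 and 7.05 TPM. Mitf and Tfe3 lay between them at 53.9 ± 8.58 and 41.3 ± 6.93 TPM (SD, n = 3).

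All 41 members were detected, against 18.1% of all 55536 genes. Of the 41, 22 (53.7%) had at least 100 TPM in every library, against 11.4% of the 10026 detected genes, and 8 had at least 1000 TPM. The median member lay at 136.6 ± 16.6 TPM and the median detected gene at 14.6 ± 0.535 TPM (SD, n = 3). On the log2(TPM + 0.1) scale the members' median was 3.06, 3.34 and 3.22 above that of detected genes in replicates 1, 2 and 3, or 3.21 ± 0.14 (SD, n = 3). The members were chosen for a function that macrophages are known for, so these values describe the list and were not tested.

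Expected counts over all genes came to 24450338, 34641026 and 60595742 in replicates 1, 2 and 3, and the lowest member count in any library was 370. All 8 macrophage markers were detected, with summed levels of 3804, 3254 and 4096 TPM; Cd14, Adgre1 and Csf1r were highest, at 625 to 1652 TPM on average, and Itgam was lower, at 61.1 TPM. Markers of neutrophils summed to 83.3, 714 and 48.4 TPM, mostly S100a9 and S100a8, then Ngp, with Ly6g listed at 0 in every library and Retnlg at 0 in replicates 1 and 3. Of 6 dendritic cell markers 2 were detected, Itgax and Ccr7, with Zbtb46 next and Xcr1 and Flt3 lowest, and the list summed to 5.22, 11.4 and 6.73 TPM. Replicate 2 stood apart by its neutrophil markers, whose part in the members' levels was not tested. Without it 41 members were detected and 25 had at least 100 TPM. Neither count can fall when a library is left out, so they do not bear on that part. In bulk RNA, fewer cells of a type and less RNA per cell cannot be told apart.

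**Figure D2:**
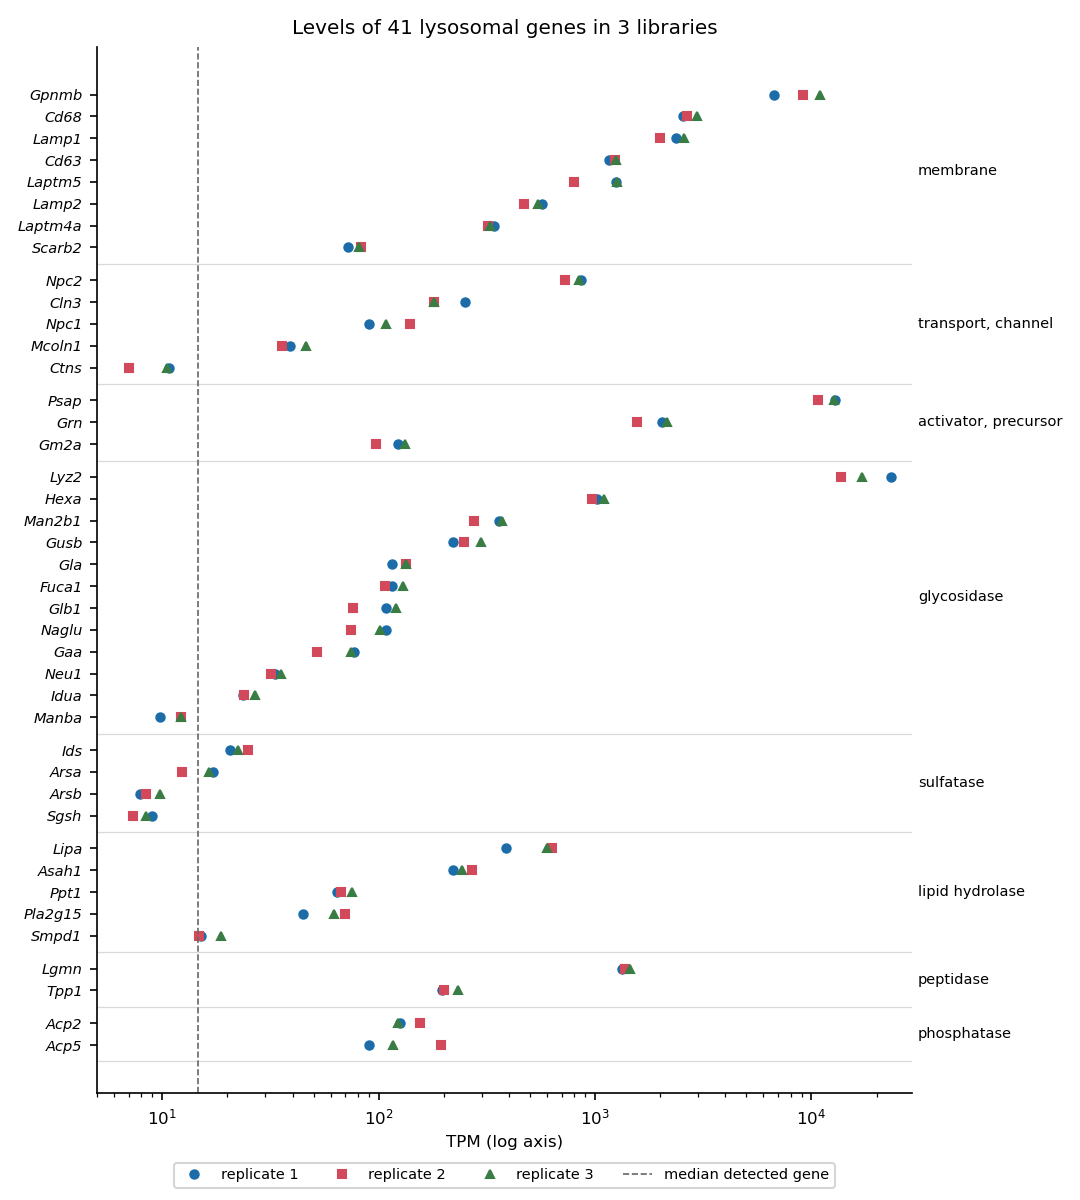
Level of each of the 41 genes in each library, in TPM on a log axis, grouped by role and ordered by mean within a role. Circles, squares and triangles are replicates 1, 2 and 3, and the dashed line is the median detected gene at 14.6 TPM; 4 of the 41 genes have a mean below it.

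The range within the list was wide, with a mean TPM of the whole gene 2195-fold higher in the highest member, Lyz2, than in the lowest, Sgsh. The members together held 5.93, 4.90 and 5.86% of all TPM in replicates 1, 2 and 3. Lyz2, Psap and Gpnmb alone made up 72.3, 68.7 and 69.5% of that. Among all genes ordered by mean TPM, 2 members were in the first 10 and 7 in the first 100. Of the 40 steps between neighbouring members in the order of means, 20 held in every replicate and 20 did not, so neighbours in the order often could not be separated. Hexa and Laptm5 (1026 and 1102 TPM), Lipa and Lamp2 (541.3 and 528 TPM), Acp5 and Acp2 (133.9 and 134.3 TPM) and Sgsh and Arsb (8.23 and 8.69 TPM) were such neighbours.

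Of the 8 membrane glycoproteins and associated proteins, 7 had at least 100 TPM in every library, and the 8 means ran from 78.7 to 8929 TPM. Gpnmb (chromosome 6, 49036546 to 49070929, mm10), a transmembrane glycoprotein of macrophages and pigment cells, had 6694, 9184 and 10909 TPM in replicates 1, 2 and 3. Replicate 1 was lowest on this scale, and the order on other scales is given below with the transcripts. Of 5 melanocyte markers none was detected: Pmel was highest at 0.22 to 0.71 TPM, Mlana had at most 0.10 TPM, and Tyr, Tyrp1 and Dct were listed at 0 in every library.

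Cd68 (chromosome 11, 69664213 to 69666153), the sialomucin widely used as a macrophage stain, had 2545, 2666 and 2955 TPM. Lamp1 (chromosome 8, 13159161 to 13175338) had 2376, 1990 and 2582 TPM. Its paralog Lamp2 (chromosome X, 38401357 to 38456454) had 566, 471 and 547 TPM. The replicates of Cd68 and Lamp1 overlapped in range, while every Lamp2 value lay below every Lamp1 value. Within each library Lamp1 exceeded Lamp2 by 2.07, 2.08 and 2.24 on the log2 scale, or 4.38-fold on average.

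The tetraspanin gene Cd63 (chromosome 10, 128900989 to 128912822) had 1158, 1238 and 1255 TPM. Laptm5, a lysosomal protein of blood cells that helps to dispose of receptors, had 1244, 799 and 1263 TPM. Its widely expressed relative Laptm4a had 341, 321 and 328 TPM. Laptm5 was lowest in replicate 2, whereas Laptm4a varied by only 1.06-fold between libraries. Scarb2 encodes LIMP-2, the receptor that carries glucocerebrosidase to the lysosome, and was the lowest of the membrane members at 72.1, 83.3 and 80.8 TPM. It was 6.69-fold below Lamp2, and Cd63 was 1.89-fold below Lamp1, in the same direction in all 3 replicates.

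The 5 transport and channel genes spanned 9.43 to 812 TPM. Npc2, the soluble protein that takes cholesterol from the lumen and hands it on, had 863, 727 and 845 TPM. Npc1, the membrane protein that receives it, had 90.5, 140 and 108 TPM. Npc2 was high where Npc1 was low. Their log2 ratio on TPM of the whole gene was 3.25, 2.38 and 2.97 in replicates 1, 2 and 3, a mean of 7.29-fold. Part of the Npc1 TPM was assigned to a retained-intron transcript, described below. Coding transcripts alone had 823, 694 and 819 TPM for Npc2 and 51.8, 77.0 and 63.8 TPM for Npc1.

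Cln3, a membrane protein lost in juvenile Batten disease, had 250, 180 and 181 TPM. Mcoln1, the calcium and cation channel TRPML1, had 39.1, 35.6 and 46.3 TPM. Ctns, the cystine exporter, had 10.7, 7.04 and 10.6 TPM. Ctns and Mcoln1 were both lowest in replicate 2, and Cln3 was highest in replicate 1. The related channel gene Mcoln2, which is not a member, had 169, 130 and 142 TPM, so Mcoln1 lay 3.63-fold below it, with log2 ratios of -2.11, -1.86 and -1.61.

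The 3 activators and precursors were Psap, Grn and Gm2a. Psap (chromosome 10, 60277627 to 60302597), whose product is cut into saposins, cofactors of sphingolipid hydrolases, had 12856, 10735 and 12762 TPM. Grn (chromosome 11, 102430315 to 102437048), the precursor of the granulins, had 2039, 1564 and 2153 TPM. Gm2a, which presents ganglioside GM2 to hexosaminidase A, had 122, 96.9 and 132 TPM. All 3 were lowest in replicate 2, and their order was the same in every library. Psap exceeded Gm2a 104-fold, with log2 ratios of 6.71, 6.79 and 6.59, and Grn 6.35-fold.

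Glycosidases, which trim sugars, formed the largest group, with 12 genes from 11.4 to 18063 TPM, 6 of them at 100 TPM or more. Lyz2 (chromosome 10, 117277331 to 117282321), the lysozyme that cuts bacterial peptidoglycan, had 23351, 13755 and 17085 TPM. Its near-identical paralog Lyz1 had 5.82, 3.93 and 3.74 TPM, and reads that match both genes could have been divided between them by the quantification, so the ratio is uncertain. Replicate 1 was highest and replicate 2 lowest for Lyz2.

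Hexa, the alpha subunit of hexosaminidase A, had 1017, 963 and 1098 TPM. It exceeded Gm2a, its cofactor for GM2, 8.81-fold, with log2 ratios of 3.05, 3.31 and 3.05 in replicates 1, 2 and 3. Every Hexa value lay above every Gm2a value.

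Man2b1, the lysosomal alpha-mannosidase, had 360, 276 and 372 TPM. Manba, the beta-mannosidase, had 9.72, 12.3 and 12.2 TPM. The alpha enzyme exceeded the beta enzyme 29.2-fold, and Man2b1 was lowest in replicate 2, Manba in replicate 1. Gusb, beta-glucuronidase, had 222, 248.7 and 298 TPM. Idua, the iduronidase that acts on heparan and dermatan sulfate, had 23.7, 24.0 and 27.0 TPM. Gusb exceeded Idua 10.2-fold.

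Gla, the alpha-galactosidase lost in Fabry disease, had 115, 133 and 134 TPM. Gaa, the acid alpha-glucosidase that clears glycogen, had 76.7, 51.9 and 74.6 TPM. Gaa was lowest in replicate 2 and Gla was not, which put their log2 ratio at 0.58, 1.36 and 0.84. Glb1, beta-galactosidase, had 108, 76.3 and 120 TPM. Neu1, the sialidase that works beside it in 1 complex, had 33.03, 31.8 and 35.5 TPM. Glb1 exceeded Neu1 2.98-fold, and the spread between libraries lay with Glb1. Fuca1, alpha-fucosidase, had 118 ± 11.5 TPM (SD, n = 3). Naglu, which removes N-acetylglucosamine from heparan sulfate, had 108, 74.5 and 101 TPM and was lowest in replicate 2.

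The 4 sulfatases were the lowest role group, from 8.23 to 22.6 TPM, and none reached 100 TPM. Ids, iduronate 2-sulfatase, had 20.6, 24.8 and 22.5 TPM. Arsa, which desulfates sulfatide, had 17.1, 12.4 and 16.5 TPM. Arsb, which acts on dermatan and chondroitin sulfate, had 7.88, 8.38 and 9.80 TPM. On TPM of the whole gene Arsa exceeded Arsb 1.74-fold within the libraries, and Ids and Arsb did not share the dip of Arsa in replicate 2. Most Arsa TPM was assigned to a retained-intron transcript, described below. The coding transcripts of Arsa alone had 6.36, 4.02 and 4.89 TPM, under Arsb in every library. Sgsh, the sulfamidase of heparan sulfate breakdown, was the lowest member on TPM of the whole gene, at 8.95, 7.33 and 8.41 TPM. Its coding transcripts alone had 8.95, 6.06 and 7.99 TPM, above those of Arsa in every library. Sgsh lay 11.3-fold below Naglu, a later enzyme of heparan sulfate breakdown, with log2 ratios of -3.58, -3.33 and -3.57. Ids and Idua, consecutive steps of dermatan sulfate breakdown, could not be separated, with log2 ratios of -0.20, 0.05 and -0.26. Arsa stood 792-fold below Psap, the precursor of its cofactor saposin B, on TPM of the whole gene, and further below it on coding transcripts alone. Sumf1, which activates every sulfatase, had 51.0 ± 4.46 TPM (SD, n = 3).

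Lipid hydrolases numbered 5 and ran from 16.2 to 541 TPM. Lipa, the acid lipase that frees cholesterol from its esters, had 387, 634 and 603 TPM. Asah1, acid ceramidase, had 221, 269 and 242 TPM. Smpd1, acid sphingomyelinase, had 15.2, 14.8 and 18.6 TPM. Lipa was lowest in replicate 1, unlike most members, and Asah1 exceeded Smpd1, whose enzyme makes ceramide from sphingomyelin, 15-fold. Pla2g15, a lysosomal phospholipase A2, had 44.6, 70.2 and 62.3 TPM and shared the low value of Lipa in replicate 1, so their log2 ratio stayed at 3.11, 3.17 and 3.27. Ppt1, the thioesterase that removes palmitate from proteins, had 64.2, 66.9 and 75.1 TPM.

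The peptidases Lgmn and Tpp1 both stood above 100 TPM. Lgmn (chromosome 12, 102394084 to 102439813), an asparagine-specific endopeptidase that processes cathepsins and antigens, had 1337, 1376 and 1444 TPM. Tpp1, tripeptidyl peptidase, had 197, 200 and 232 TPM. Lgmn exceeded Tpp1 6.63-fold. Tpp1 exceeded Ppt1, another gene lost in childhood neuronal ceroid lipofuscinosis, 3.04-fold, with an SD of the log2 ratio of 0.03, the smallest of the 28 pairs examined. On TPM of the whole gene Tpp1 and Cln3 were on opposite sides in different libraries, with log2 ratios of -0.35, 0.15 and 0.36. Coding transcripts alone had 164.6, 174.4 and 190.9 TPM for Tpp1 and 158.2, 122.3 and 134.4 TPM for Cln3. By these Tpp1 was above Cln3 in every library.

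The phosphatases had close means on TPM of the whole gene, and unlike spreads. Acp5 (chromosome 9, 22126727 to 22135711), tartrate-resistant acid phosphatase, had 90.7, 195 and 116 TPM. Acp2, the acid phosphatase that reaches the lysosome as a membrane protein, had 125, 155 and 123 TPM. Both were highest in replicate 2, and Acp5 varied 2.15-fold against 1.27-fold in Acp2. The coding transcripts of Acp2 alone had 99.4, 125.5 and 104.9 TPM, below Acp5 in replicates 2 and 3 and above it in replicate 1. Acp5 is also a marker of osteoclasts, bone-resorbing relatives of macrophages. Of 7 other osteoclast markers 3 were detected, and their summed level was 60.3, 247 and 131 TPM. Atp6v0d2, a proton pump subunit, gave most of this at 55.9, 237 and 123 TPM, while Calcr was listed at 0, Ocstamp was at 0.04 to 0.05 TPM, Itgb3 was at 2.44 to 5.75 TPM and Ctsk at 1.34 to 4.14 TPM. Acp5 and Atp6v0d2 thus followed the same order of replicates, and the part of other cells in it was not tested.

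**Figure D3:**
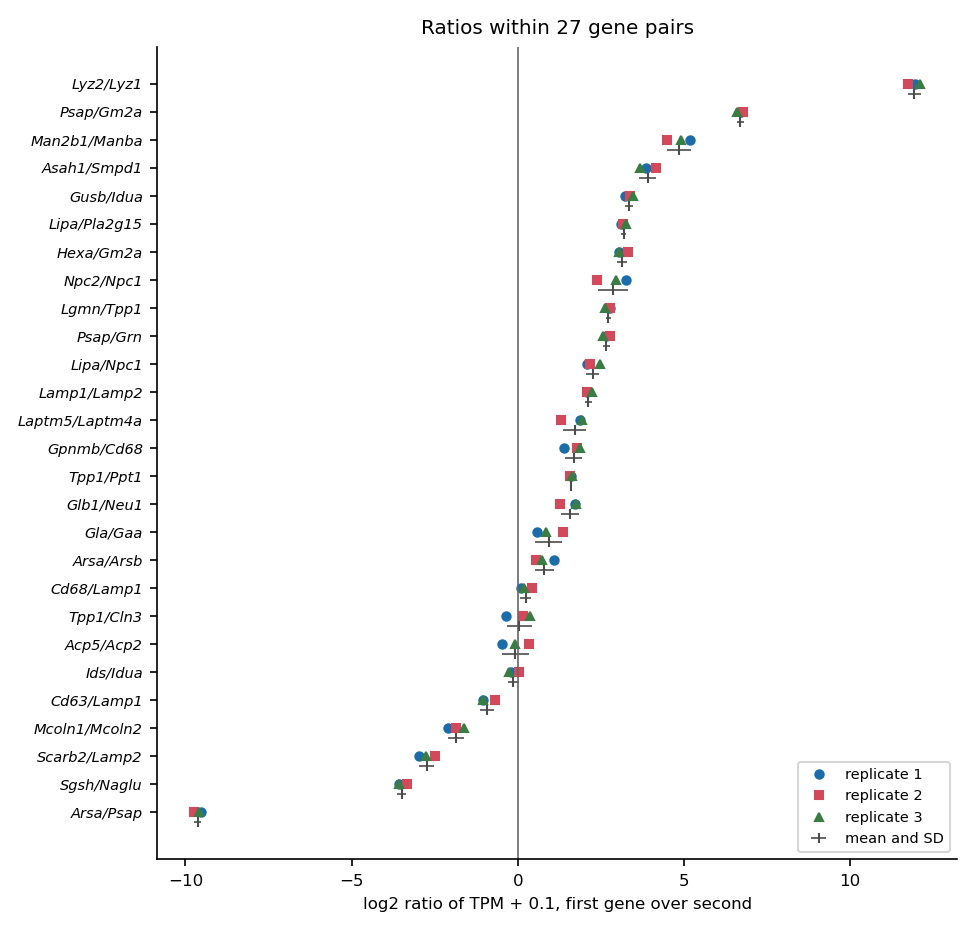
Log2 ratio of whole-gene TPM + 0.1 within each of 27 gene pairs, first gene over second, in each library. Circles, squares and triangles are replicates 1, 2 and 3, with the mean and SD just below the points. In 24 pairs all 3 libraries lie on 1 side of 0; Ids/Idua, Tpp1/Cln3 and Acp5/Acp2 straddle it.

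Over the 28 pairs, which joined enzymes with their cofactors, paralogs, or steps of 1 route, 25 kept their direction in all 3 libraries and 21 differed by more than 2-fold. These ratios are on TPM of the whole gene. An exact permutation test over sign flips (two-sided) of 3 replicates has a smallest p of 0.25, which is 0.28 after Benjamini-Hochberg adjustment over the 28 pairs, so no pair could pass a threshold of 0.05. The 3 pairs of mixed direction had log2 means of -0.14 ± 0.16 for Ids/Idua, 0.05 ± 0.36 for Tpp1/Cln3 and -0.07 ± 0.40 for Acp5/Acp2 (SD, n = 3). Cd68/Lamp1 kept its direction at 0.24 ± 0.17 on TPM, but turned to -0.81 on counts without length scaling.

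Differences between the replicates were compared next. On expected counts rounded to whole numbers, a chi-square test of equal rates over the 3 libraries, with Benjamini-Hochberg adjustment over the 11611 genes past a filter on low counts at 0.05, called 41 of 41 members, against 77.5% of all genes tested. With no such filter it called 41 of 41 members, against 49.6% of 20566 genes. The test picks up smaller differences at higher counts, and the median member lay above the median detected gene. These shares therefore do not say that members varied more than other genes. The highest library exceeded the lowest by more than 1.5-fold in 9 members and by more than 2-fold only, and barely, in Acp5. The share of all tested genes past these folds is not given here. The median SD of log2 CPM (counts scaled to a common library size by the trimmed mean of M values) was 0.20 over members and 0.24 over all genes.

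The members were unevenly placed across the libraries. Replicate 1 was the highest library for 10 members (24.4%), against 31.6% of all genes. Replicate 2 was highest for 7 members (17.1%), against 37.8% of all genes, and replicate 3 for 24 members (58.5%), against 30.6%. Replicate 2 was the lowest library for 29 members (70.7%), against 36.6% of all genes, a count made after the values were seen. Replicate 1 was lowest for 11 members, against 32.8% of all genes, and replicate 3 for 1 member, Acp2, against 30.5%. Set against the mean of the other libraries, the median member deviated by 0.02, -0.21 and 0.21 on the log2 CPM scale in replicates 1, 2 and 3, and the median of all genes by at most 0.01.

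**Figure D4:**
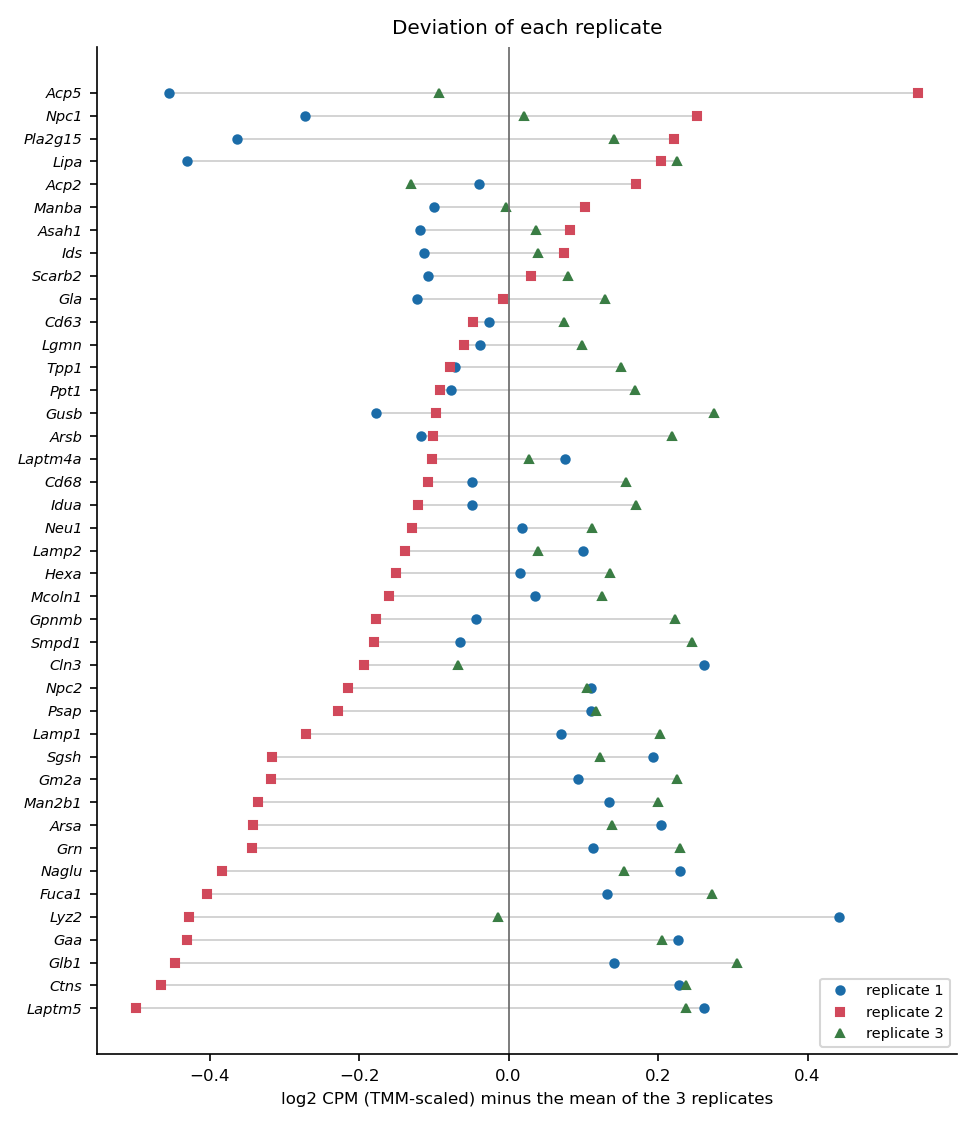
Deviation of each library from the mean of the 3, for each member, in log2 CPM scaled by the trimmed mean of M values, ordered by the deviation of replicate 2. Squares (replicate 2) form the left end in 29 members and the right end in 7, with Laptm5 lowest and Acp5 highest.

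Laptm5, Ctns, Glb1, Gaa and Lyz2 had the lowest relative values in replicate 2. Laptm5 had 1929, 1139 and 1896 CPM in replicates 1, 2 and 3. Glb1 had 154, 103 and 173 CPM, and Ctns had 16.4, 10.1 and 16.5 CPM. The 7 members highest in replicate 2 were Acp2, Acp5, Asah1, Ids, Manba, Npc1 and Pla2g15. Acp5 had 66.7, 133.5 and 85.6 CPM, and Npc1 had 222, 319 and 271 CPM. Of the 10 members with an E-box in the promoter window, 9 were lowest in replicate 2, against 20 of the 31 others (Asah1 and Npc1 among them), and their median deviation there was -0.44 against -0.16. This split was made on CPM, after the values were seen, and was not tested. The share lowest in replicate 2 among all genes with an E-box is not given here, so the split says nothing about the motif. On deposited TPM replicate 2 was lowest for 22 members, against 28.9% of genes. That is fewer members than on CPM, in both parts of the split. Replicate 2 also had the highest summed neutrophil markers, 714 TPM against 83.3 and 48.4 TPM, and the lowest level of the macrophage marker Csf1r, at 461 TPM against 769 and 646 TPM. The part of either in the members' values was not tested.

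Transcripts were quantified in each library by an alignment to the transcriptome and, separately, directly from the reads with an index. GENCODE M21 lists 211 transcripts for the 41 members, and 4 members have a single one. In 26 members 1 transcript held 90% or more of the gene's TPM in the first quantification, and in 25 members in the second. The main transcript was the same in 39 members, and its mean share moved by more than 10 percentage points between the quantifications in 7.

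Lamp2 makes 3 proteins that share their luminal part and differ in the transmembrane segment and the short cytosolic tail; LAMP-2A is the form known for chaperone-mediated autophagy. The first 1109 coding bases are shared by Lamp2-201, Lamp2-202 and Lamp2-203, and their last 33 coding bases before the stop codon are shown because they tell the forms apart, in capitals where the 3 transcripts are not all alike (22 positions). The gene lies on the minus strand of chromosome X (mm10), and the final coding exons are at chrX:38405435-38405571, chrX:38421715-38421851 and chrX:38402142-38402281 for the 3 transcripts in this order.
Lamp2-201 (LAMP-2A): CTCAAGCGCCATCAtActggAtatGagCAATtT
Lamp2-202 (LAMP-2B): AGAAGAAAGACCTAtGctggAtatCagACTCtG
Lamp2-203 (LAMP-2C): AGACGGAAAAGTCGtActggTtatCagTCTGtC
The A form took 54.6, 45.0 and 56.8% of Lamp2 TPM in replicates 1, 2 and 3. The B form took 44.9, 54.5 and 42.7%, so it was ahead only in replicate 2. The C form took 0.27, 0.22 and 0.34%. The second quantification gave 56.6, 47.0 and 59.6% for A and 42.7, 52.4 and 39.8% for B, with the same order of replicates. The annotated lengths of A, B and C are 1769, 3604 and 2184 bases, and the shares rest on scaling by these lengths.

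The order of replicates for Gpnmb differed between scales. Gpnmb-202, a 365-base transcript of the nonsense-mediated decay class, took 5.77, 35.0 and 32.6% of the gene's TPM in replicates 1, 2 and 3 in the first quantification, and 0.52, 0.65 and 0.72% in the second. The coding transcripts alone had 6274, 5954 and 7320 TPM in the first quantification. By CPM, which takes no account of length, Gpnmb had 14198, 12940 and 17074. Replicate 2 was lowest on these last scales, whereas replicate 1 was lowest on the deposited gene TPM and in the second quantification, at 4582, 5732 and 6164 TPM. The second quantification shifted detected genes by a median of -0.39, -0.06 and -0.27 on the log2 scale in replicates 1, 2 and 3. That shift was largest in replicate 1 and was not removed, so its order of replicates for Gpnmb is uncertain.

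**Figure D5:**
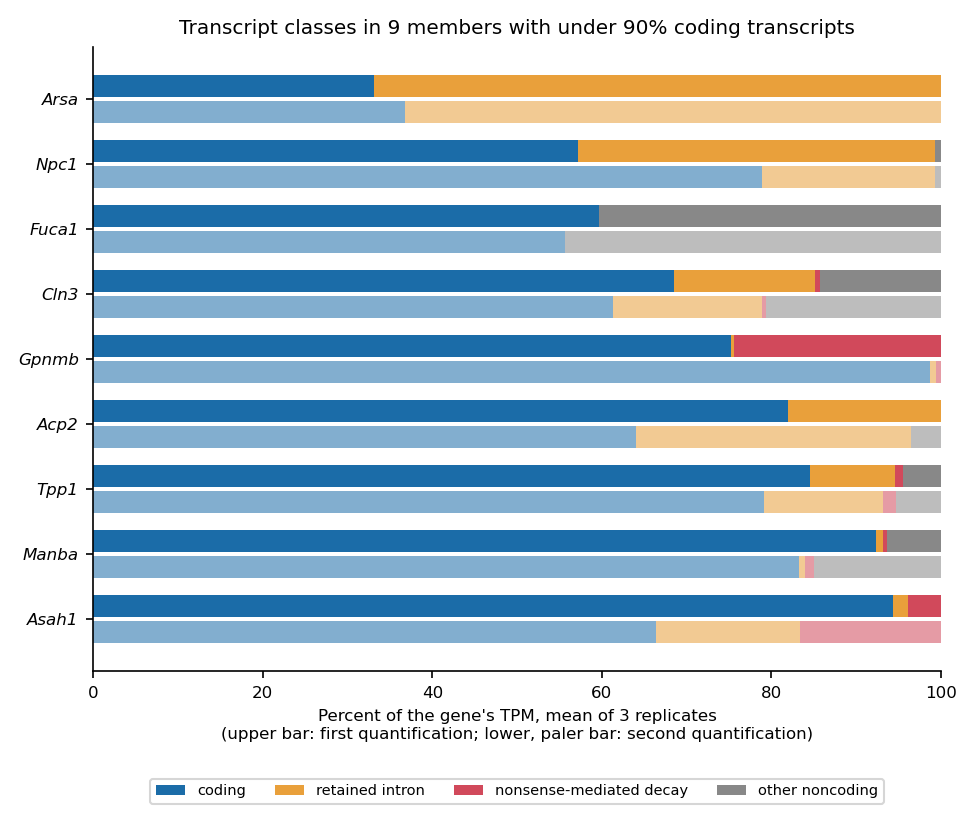
Share of each gene's TPM by transcript class, as the mean of 3 replicates, for the 9 members whose coding transcripts held under 90% in either quantification. The upper bar is the first quantification and the paler lower bar the second; Arsa is mostly retained intron in both (66.8 and 63.2%), while Gpnmb and Asah1 differ between them.

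Arsa was assigned mostly to Arsa-201, a retained-intron transcript with no annotated protein, at 66.8 ± 3.83% in the first quantification and 63.2 ± 0.52% in the second (SD, n = 3). Its coding transcripts had 6.36, 4.02 and 4.89 TPM. In Npc1 the retained-intron transcript Npc1-206 took 42.1 ± 2.03% in the first quantification and 20.1 ± 9.03% in the second. Acp2-202, likewise a retained-intron form, took 18.1 ± 3.29% and 32.4 ± 1.90%. Reads were assigned to retained introns in these 3 genes by both quantifications, and the share moved by over 10 percentage points in Npc1 and Acp2. Fuca1-205, a 401-base noncoding transcript, took 38.3 ± 7.71% and 41.1 ± 7.45%. The main coding transcript of Asah1 took 94.3 ± 1.03% in the first quantification and 66.1 ± 19.5% in the second.

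Cln3 had 19 annotated transcripts and no main one: Cln3-201 led the first quantification at 14.9 ± 2.68% and Cln3-203 the second at 19.6 ± 1.93%. Its coding transcripts together held 68.5 ± 5.53% in the first quantification and 61.3 ± 9.71% in the second. Gaa was divided between Gaa-201 at 51.8 ± 1.39% and Gaa-203 at 47.1 ± 1.29%, both coding, and the second quantification put Gaa-203 ahead at 56.1 ± 7.29%. Lgmn-202 took 26.8, 9.41 and 17.1% of Lgmn TPM, highest in replicate 1. Exons of 13 members share bases with another gene, in 12 of them on the other strand, with strand use in the counting not given in the sources used here. These members have 16 such neighbours, of which 8 were detected. Ppt1 shares 129 exon bases with Cap1, at 368.5 TPM, and Cln3 shares 442 with Apobr, at 89.6 TPM, so the values of Ppt1 and Cln3 are uncertain to that extent.

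Lists of other lysosomal genes, made with the members' levels known, had lower medians than the 41 members, though some genes in them lay above the median member. Of 26 other hydrolases 25 were detected and 9 had at least 100 TPM in every library, with a list median of 61.3 ± 2.32 TPM (SD, n = 3). The highest were Ctsa, which protects Glb1 and Neu1 in their complex, at 1176 ± 66.3 TPM, and the ribonuclease gene Rnaset2b at 513.6 ± 59.0 TPM. The lowest were Arsg, a sulfatase, at 0.97, 1.40 and 1.39 TPM, and Plbd1, a phospholipase B-like protein, at 2.35, 2.57 and 1.74 TPM. Rnaset2b has a close copy, Rnaset2a, at 151 ± 29.8 TPM, and the division between them is uncertain.

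Of 25 other membrane proteins 23 were detected and 8 had at least 100 TPM, with a median of 30.6 ± 2.61 TPM. Slc15a3, a peptide and histidine transporter, led at 597 ± 21.02 TPM, followed by Litaf at 423 ± 88.8 TPM and Glmp at 326 ± 23.5 TPM. Lamp3, a relative of Lamp1 found in mature dendritic cells, was listed at 0 in every library, and the peptide transporter gene Abcb9 had 0.59, 0.68 and 0.47 TPM. All 11 genes of sorting and activation were detected, with a median of 31.4 ± 1.17 TPM. The mannose 6-phosphate receptor gene M6pr led at 254, 330 and 281 TPM, and Vps35 of the retromer followed at 105 ± 14.2 TPM and Sumf1 as above. Sort1, the sorting receptor sortilin, was lowest at 14.2 ± 4.55 TPM, next to the adaptor gene Gga2 at 18.6 ± 1.92 TPM.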

How the data were processed

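The 41 members, the 28 pairs and the 9 gene lists were chosen with earlier results of these data known. Per the file headers, the authors deposited expected counts, TPM and FPKM per gene and per transcript with the percent of each gene's abundance, and a second transcript quantification with estimated counts and TPM; per the text deposited beside them, the assembly is mm10 and the annotation GENCODE M21. Quantification tools and versions: not given in the sources used here. Entries that name no mouse gene held 0.117, 0.0993 and 0.082% of counts in replicates 1, 2 and 3 and were left out. The second quantification held 32095496, 38175617 and 67511023 estimated counts and was summed per gene. TPM was used as deposited with a pseudocount of 0.1 on the log2 scale, which understates ratios of low genes; FPKM and a detection limit of 0.5 TPM were alternatives. Expected counts were rounded, filtered and scaled with edgeR 4.0.16 in R 4.3.3, and DESeq2 1.42.0 size factors were an alternative. The chi-square test of equal rates was tested on simulated data. It compares libraries, and without molecular identifiers amplified fragments may repeat a molecule, so it covers counting error only. No 2 libraries were alike: each pair differed in 50.6 to 64.3% of genes. Values in each replicate are given for the 10 highest, the 5 lowest and the 8 most variable members and for members in a pair; lists are given by their 3 highest and 2 lowest genes, except 2 list genes and 1 pair that are not reported here. Positions are counted from 1.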

Additional observations from a re-analysis of the deposited data

How the results depend on the processing

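Detection of all 41 members did not change under FPKM or the second quantification. A limit of 0.5 TPM, or leaving out 1 replicate, could only keep all 41, so these settings were no check. The count at 100 TPM or more was 19 under FPKM and 20 in the second quantification. Without replicate 1, 2 or 3 it was 24, 25 and 22, where it could not fall below 22. The counts without 1 replicate were added after the data were seen. The members' median above detected genes moved to 3.57 on counts without length scaling, and lay between 3.18 and 3.34 without 1 replicate. In the second quantification 27 of 41 member levels moved by more than 1 SD and 14 did not, while detected genes themselves shifted by -0.39, -0.06 and -0.27 on the log2 scale in replicates 1, 2 and 3. On counts without length scaling Cd68/Lamp1 turned to -0.81 and Ids/Idua to 0.53. Tpp1/Cln3 turned to -0.38 in the second quantification and was 1.46 on counts without length scaling. Without 1 replicate it ran from -0.10 to 0.25, negative without replicate 3. Acp5/Acp2 ran from -0.27 to 0.13 without 1 replicate, positive without replicate 1, and was -1.87 on counts without length scaling. The cause of these turns was not tested. Replicate 2 was lowest for 29 members, against 37.3% of genes, with DESeq2 size factors, for 22, against 28.9%, on deposited TPM, and for 27, against 28.6%, with no filter on low counts; these settings were added after the data were seen. The chi-square test called 40 members, against 77.6% of genes, with DESeq2 size factors. It called 39, 33 and 34 members, against 64.3, 50.6 and 58.8% of genes, without replicate 1, 2 and 3. No paired analysis was possible because there is 1 group.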
